A study of Homo sapiens with 6 samples.

Results

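Bidirectional coding gene promoters, stretches of DNA from which 2 protein-coding genes are read in opposite directions, were examined for 2 histone marks in OCI-AML3 cells. Members were all pairs of protein-coding genes on opposite strands that lie head to head, with the minus-strand gene upstream, gene starts at most 1000 bp apart and bodies that do not overlap. In the GRCh37 annotation (GENCODE version 44), used for acetylation of lysine 27 of histone H3 (H3K27Ac), 883 pairs with 1703 of 20162 coding genes met the rule. In the GRCh38 annotation (RefSeq), used for trimethylation of lysine 4 of histone H3 (H3K4me3), 1015 pairs with 2001 of 20033 coding genes did so, and 362 coding genes had no strand and could not enter. A region ran from 1 kb outside one start to 1 kb outside the other. The median gap between the starts was 131 bp in GRCh37 (quartiles 69 and 247) and 175 bp in GRCh38 (quartiles 99 and 296), and the range was 1 to 995 bp in both. Some members share DNA: 121 pairs in GRCh37 and 58 in GRCh38 overlapped another pair.

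OCI-AML3 is an established human acute myeloid leukemia line with mutant NPM1. The groups received either sgNeg, the control guide RNA, or sgNpm1A, which is directed at mutant NPM1, by transfection. Labels give 3 days of culture, and the methods of the study state a longer time for chromatin. Each guide RNA and mark was measured in 1 library, which gave 4 peak lists: sgNeg H3K27Ac, sgNpm1A H3K27Ac, sgNeg H3K4me3 and sgNpm1A H3K4me3. There was no replicate, so no test between guides was possible, every difference describes a pair of libraries, and intervals are 95% Wilson intervals that cover counting error only. These are bulk cells, in which a mark on fewer cells and less of the mark per cell cannot be told apart, and the share of edited cells cannot be read from peaks.

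Head-to-head genes share a short stretch of open chromatin from which RNA polymerase II leaves in both directions. Such promoters are typically rich in CpG and poor in TATA boxes, and they are common among housekeeping genes for DNA repair, mitochondrial function and the cell cycle. H3K4me3 is placed on the nucleosomes downstream of an active start, and H3K27Ac marks active promoters and enhancers. The nucleosome-poor stretch over the start itself carries little of either.

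The lists differed before any promoter was considered. They held 327715 peaks (sgNeg H3K27Ac), 317059 (sgNpm1A H3K27Ac), 353628 (sgNeg H3K4me3) and 106641 (sgNpm1A H3K4me3), over 220 Mb, 195 Mb, 93.7 Mb and 55.4 Mb of the genome. H3K27Ac came as broad peaks, with fold enrichment averaged over each peak, and H3K4me3 as narrow peaks, with the value at the summit, so that values and widths are set side by side within a mark only. The labels name OCI-AML3 for every library, but the deposited names carry the tag OCI2 for the H3K27Ac lists and OCI3 for the H3K4me3 lists. No source used here explains the tags, and the study also worked with OCI-AML2, a line with wild-type NPM1, so the line behind the H3K27Ac values rests on the labels alone and the marks are set side by side with that reservation. Of 8 myeloid and hematopoietic marker genes, 8 had a promoter peak in sgNeg H3K27Ac and 5 in sgNeg H3K4me3. Of 8 markers of other cell types, 5 and 3 had one, and 0 of these lay in the top 1% of either list, against 3 and 2 of the myeloid genes. In the sgNpm1A lists 3 of 8 myeloid genes and 3 of 8 of the others had an H3K27Ac peak, 1 of 8 and 1 of 8 an H3K4me3 peak, and 0 lay in the top 1%. The promoter of NPM1, the targeted gene, which is no member, held a peak of 7.02-fold enrichment in sgNeg H3K27Ac and 10.6-fold in sgNeg H3K4me3 and none in either sgNpm1A list. A peak list does not show the edit itself.

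Promoter sequences of 5 well-known pairs are printed to show what lies between the starts, because the H3K4me3 peaks described further on stop short of this stretch. The sequences are from RefSeq (GRCh38.p14), which held a promoter for 1728 of the 2001 member genes, and cover 250 bases before to 50 after the start of the plus-strand gene, on the plus strand. The pairs are the 5 of 11 well-known pairs found in GRCh38 that have the smallest gaps and a RefSeq promoter at the start used here. Capitals mark, on either strand, the motifs CCAAT (bound by NF-Y), GGGCGG (the GC box of SP factors), TATAAA (the TATA box), CCGGAA (the core of ETS factor sites), CATGCGC (part of the NRF1 motif) and AGATGGC (part of the YY1 motif). The plus-strand gene starts right after the first 250 bases, and positions are counted from 1 at the left end.
HSPD1/HSPE1: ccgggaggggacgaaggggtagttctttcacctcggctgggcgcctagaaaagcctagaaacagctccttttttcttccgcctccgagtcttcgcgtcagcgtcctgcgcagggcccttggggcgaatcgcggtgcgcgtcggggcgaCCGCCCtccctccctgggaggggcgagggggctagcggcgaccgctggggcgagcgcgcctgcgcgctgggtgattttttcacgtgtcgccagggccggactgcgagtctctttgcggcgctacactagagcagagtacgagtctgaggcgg
COL4A1/COL4A2: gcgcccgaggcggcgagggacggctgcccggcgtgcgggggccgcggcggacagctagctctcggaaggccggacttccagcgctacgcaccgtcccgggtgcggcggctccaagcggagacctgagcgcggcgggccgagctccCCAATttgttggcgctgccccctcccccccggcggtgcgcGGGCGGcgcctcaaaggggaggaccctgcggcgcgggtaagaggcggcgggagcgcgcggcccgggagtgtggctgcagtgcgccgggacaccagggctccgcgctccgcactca
GART/SON: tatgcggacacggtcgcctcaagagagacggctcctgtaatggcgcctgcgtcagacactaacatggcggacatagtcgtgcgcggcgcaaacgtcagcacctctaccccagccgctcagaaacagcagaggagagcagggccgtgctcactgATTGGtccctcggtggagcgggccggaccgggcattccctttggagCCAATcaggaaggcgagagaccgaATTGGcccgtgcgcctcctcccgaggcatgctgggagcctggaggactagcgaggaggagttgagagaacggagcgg
IMMP1L/ELP4: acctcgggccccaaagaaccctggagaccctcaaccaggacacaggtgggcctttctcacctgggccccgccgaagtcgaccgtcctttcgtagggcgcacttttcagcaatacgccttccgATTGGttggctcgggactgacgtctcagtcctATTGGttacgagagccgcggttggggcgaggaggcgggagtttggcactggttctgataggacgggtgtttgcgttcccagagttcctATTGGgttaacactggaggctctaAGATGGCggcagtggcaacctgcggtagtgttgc
TK1/AFMID: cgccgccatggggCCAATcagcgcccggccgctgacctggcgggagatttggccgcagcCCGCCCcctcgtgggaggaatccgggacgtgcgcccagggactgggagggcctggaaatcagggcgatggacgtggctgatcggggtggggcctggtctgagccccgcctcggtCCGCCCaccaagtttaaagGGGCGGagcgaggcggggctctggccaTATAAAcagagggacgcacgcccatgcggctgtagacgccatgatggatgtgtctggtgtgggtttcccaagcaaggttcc

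HSPD1 and HSPE1 encode the mitochondrial chaperonin and its co-chaperonin, and their window (chr2:197500129-197500428) holds both starts, with HSPD1 reading leftward from base 146. The window of COL4A1 and COL4A2, the type IV collagen genes of basement membranes, lies at chr13:110307034-110307333 with COL4A1 starting at base 124. GART, an enzyme of purine synthesis, and SON, a protein of nuclear speckles, share chr21:33542788-33543087, where GART starts at base 106. IMMP1L, a peptidase of the inner mitochondrial membrane, and ELP4, a subunit of the Elongator complex, share chr11:31509517-31509816, and IMMP1L starts at base 106. TK1, the thymidine kinase of dividing cells, and AFMID, an arylformamidase, share chr17:78187112-78187411, and TK1 starts at base 93. GC content was 67.0%, 77.7%, 63.3%, 59.3% and 67.7% in this order. The windows of GART/SON and IMMP1L/ELP4 held 3 matches each to CCAAT or its complement, while TK1/AFMID had 1 beside 3 of GGGCGG and the only TATAAA of the 5.

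Bidirectional promoters carried a sgNeg peak more often than one-directional promoters, which are coding genes in no pair and with no other coding start within 5 kb, taken in windows of the same median length. In sgNeg H3K27Ac, 828 of 883 pairs had a peak (93.8%, interval 92.0 to 95.2), against 65.1% of 15075 one-directional promoters and 70.2% of all 20162 coding promoters, members included. In sgNeg H3K4me3, 944 of 1015 pairs had a peak (93.0%, interval 91.3 to 94.4), against 60.6% of 15399 one-directional and 65.3% of all 19671 coding promoters with a strand. Windows of the same length 20 kb to either side of the pairs had a peak in 44.2% and 32.3%. The intervals of the classes did not overlap for either mark. With windows of 1 kb on either side of each single start, which give every gene the same window, the excess over one-directional promoters was 28.7 percentage points for H3K27Ac and 32.5 for H3K4me3, as against 28.7 and 32.4 for the regions.

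With all deposited peaks, the sgNpm1A lists showed the opposite order. In sgNpm1A H3K27Ac, 249 pairs had a peak (28.2%, interval 25.3 to 31.3), below the 33.6% of one-directional and 33.5% of all promoters and below the 37.0% of windows 20 kb from the pairs. In sgNpm1A H3K4me3, 29 pairs had a peak (2.86%, interval 2.0 to 4.07), against 8.90% of one-directional promoters, 8.06% of all promoters and 12.6% of the windows 20 kb away. For H3K27Ac the difference between pairs and one-directional promoters was -5.41 percentage points (interval -8.38 to -2.26) with all peaks. It was -3.50 (interval -5.32 to -1.34) at q-values under 0.01 and -4.55 (interval -7.24 to -1.63) with 200 bp of overlap. The order was not seen among the strongest peaks. There the difference was -0.123 at folds of at least 4 and -0.616 with the 20000 lowest p-values. At q-values under 1e-05 it was 0.161 (interval -0.133 to 0.871). Under that last limit 4 of 883 pairs and 44 of 15075 one-directional promoters kept a peak, so a large difference was not possible. With all peaks, pairs stood above their own surroundings in both sgNeg lists and below them in both sgNpm1A lists. The sgNpm1A lists also differed from the sgNeg lists as a whole, in number of peaks and covered length as given above, and the part of this in the promoter shares was not tested.

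**Figure D1:**
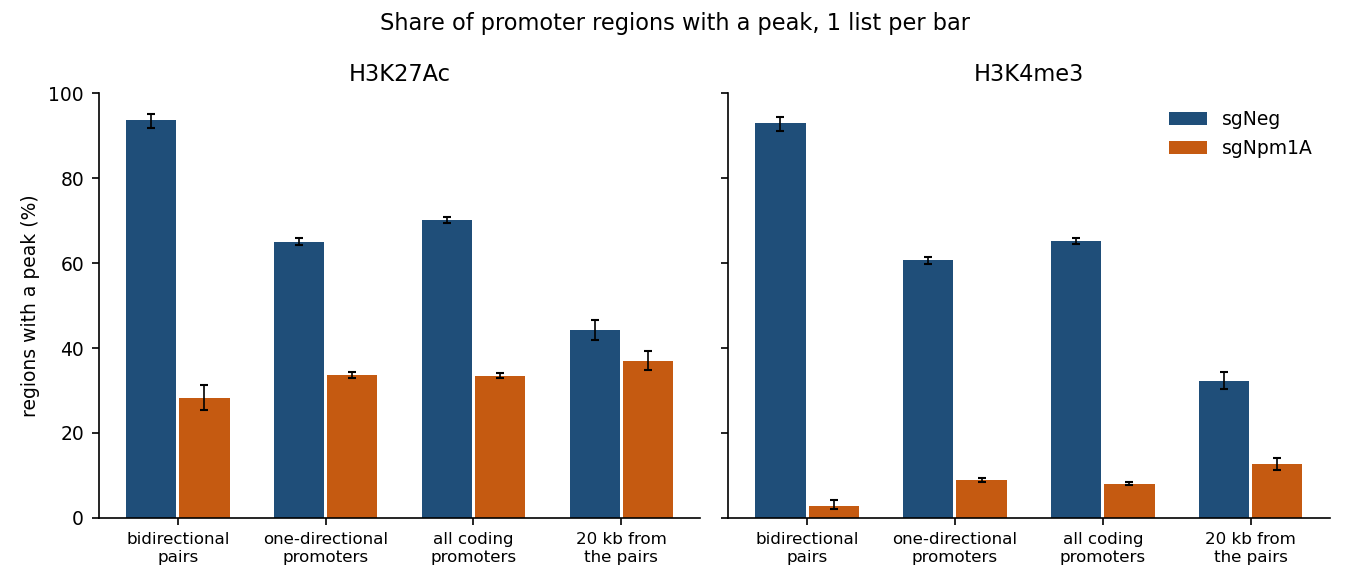
Share of regions with at least 1 peak (%) in each list, for bidirectional pairs, one-directional promoters, all coding promoters and windows 20 kb from the pairs, with blue bars for sgNeg and orange bars for sgNpm1A. Whiskers are 95% Wilson intervals. The pairs are the highest group in sgNeg (93.8% and 93.0%) and the lowest in sgNpm1A (28.2% and 2.86%).

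In the sgNeg lists, the highest peak over a pair was also higher and wider. A pair's region holds 2 starts and a one-directional window 1, so the highest peak and the covered share draw on 2 sides. Marked pairs had a median of 2 sgNeg H3K4me3 peaks, against 1 at marked one-directional promoters. For H3K27Ac the median was 1 in both classes. Where the 2 sides had different sgNeg H3K4me3 peaks, the higher was a median of 1.35 times the lower. The part of this in the values below was not tested. Over pairs with a peak, the median fold enrichment of the highest sgNeg H3K27Ac peak was 4.77 (quartiles 3.95 and 5.68), against 3.79 at one-directional promoters, and its median width was 2096 bp against 1369 bp. For sgNeg H3K4me3 the median fold was 7.49 (quartiles 5.82 and 9.36) against 5.62, and the width 859 bp against 616 bp. Peaks covered a median of 81.3% of a marked region in sgNeg H3K27Ac and 54.4% in sgNeg H3K4me3, against 54.0% and 31.1% of a one-directional window. Within its list, the highest peak of a pair, counted as 0 where there was none, had a median percentile of 97.8 in sgNeg H3K27Ac and 98.3 in sgNeg H3K4me3, against 66.2 and 62.6 at one-directional promoters. These medians also carry the shares without a peak. Where a peak was present, the median percentile was 97.9 at pairs and 95.4 at one-directional promoters for sgNeg H3K27Ac. For sgNeg H3K4me3 it was 98.4 and 96.4. In the sgNpm1A lists the classes had like folds: the median was 2.92 at pairs and 2.98 at one-directional promoters for H3K27Ac, and 3.82 at both for H3K4me3. Widths and covered shares where a peak was present were lower at pairs. For sgNpm1A H3K27Ac the median width was 485 bp against 565 bp, and the median covered share 16.97% against 20.36%. The median percentile of these sgNpm1A H3K27Ac peaks was 47.15 against 55.41. For sgNpm1A H3K4me3 the median width was 407 bp against 454 bp.

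The shape of the marks over a pair differed from that over a single start. H3K4me3 lay on both sides of a pair and not between the starts: at 500 bp left and right of the midpoint 65.2% and 65.1% of all pairs were under a sgNeg H3K4me3 peak, and at the midpoint itself 9.85%. One-directional promoters had 37.7% at 500 bp downstream of the start and 8.93% at 500 bp upstream. The low coverage at the start was common to both classes, with 9.98% of one-directional starts under a peak. Both sides of a pair, each the first 1 kb of a gene, held a sgNeg H3K4me3 peak in 665 of 944 marked pairs (70.4%, interval 67.5 to 73.3), whereas 35.6% of marked one-directional promoters had a peak on both sides of the start. The minus-strand gene alone was marked in 133 pairs and the plus-strand gene alone in 145.

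H3K27Ac covered the pair as 1 domain. In sgNeg H3K27Ac 76.6%, 80.4% and 77.0% of pairs were under a peak at 500 bp left, at the midpoint and at 500 bp right, against 30.1%, 42.2% and 45.1% of one-directional promoters from upstream to downstream. A single sgNeg H3K27Ac peak covered both starts in 694 of 828 marked pairs (83.8%, interval 81.2 to 86.2), and 88 marked pairs (10.6%) had neither start under a peak. For H3K4me3, 57 of 944 marked pairs (6.04%, interval 4.69 to 7.74) had 1 sgNeg peak over both starts, and in 728 (77.1%) neither start was under a peak. Of marked one-directional promoters, 16.5% had the start under a sgNeg H3K4me3 peak and 64.8% under a sgNeg H3K27Ac peak. Broad and narrow calling differ between the marks, so these 2 shares are not a comparison of the marks. In sgNpm1A H3K27Ac 3.28% of pairs were under a peak at the midpoint, against 10.3% and 9.97% at 3 kb to the left and right. In sgNpm1A H3K4me3 the share was 0.591% at the midpoint, 0.197% and 0.690% at 500 bp left and right, and 2.96% and 3.25% at 3 kb.

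**Figure D2:**
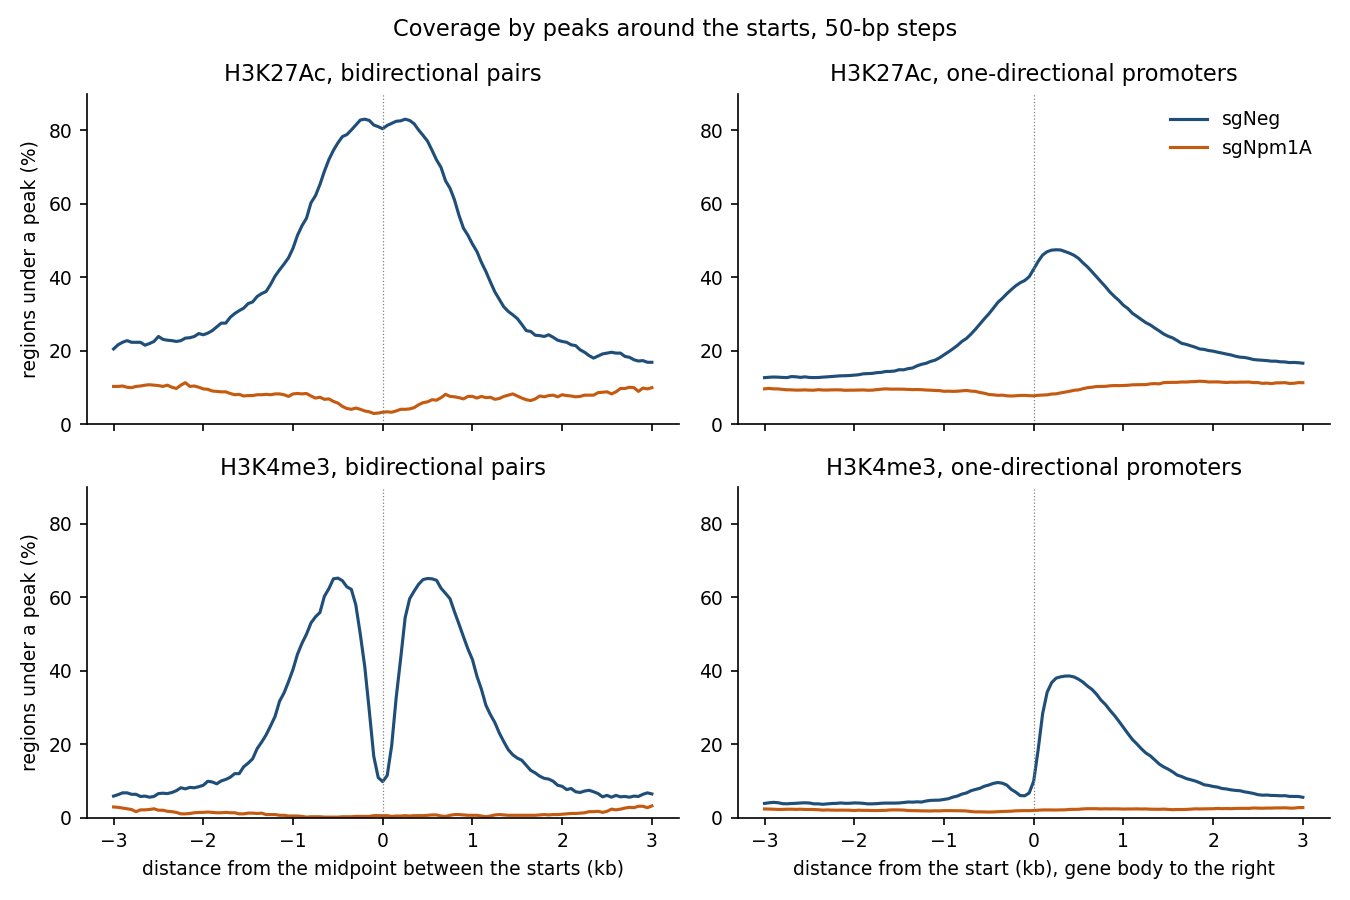
Share of regions under a peak (%) by distance in kb, in 50-bp steps, from the midpoint of a pair (left) or from the start of a one-directional gene with its body to the right (right), for H3K27Ac (top) and H3K4me3 (bottom). The sgNeg H3K4me3 line has a peak on either side of the pair midpoint (65.2% and 65.1%) with 9.85% between, and the sgNpm1A lines at pairs are lower near the midpoint than at 3 kb.

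Summits of the narrow H3K4me3 peaks gave the same picture. Of 920 pairs whose highest sgNeg peak had its summit in the region, the summit lay over the minus-strand gene in 449, over the plus-strand gene in 467 and in the gap in 4 (0.435%). Those 4 pairs, named after their values were seen, were DST/BEND6, LGI3/SFTPC, TLCD1/NEK8 and TRIM50/FKBP6. Per kb of sequence, sgNeg H3K4me3 summits numbered 0.808 over the minus-strand and 0.821 over the plus-strand genes and 0.125 in the gaps. In one-directional windows 83.1% of the highest summits lay downstream of the start. The shares over the minus-strand genes (48.8%, interval 45.6 to 52.0) and plus-strand genes (50.8%, interval 47.5 to 54.0) differed by less than counting error.

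The 2 sides of a pair often differed in height. In 611 of the 665 pairs marked on both sides by H3K4me3 in sgNeg, the sides had different highest peaks. The higher side was a median of 1.35 times the lower, a ratio that is at least 1 by construction, and in 104 pairs it was at least 2 times the lower. Across these 611 pairs Spearman's rho between the sides was 0.143, a description over peaks of 1 library that share its depth. In TFB2M/CNST, which pairs a mitochondrial transcription factor with CNST, the side of TFB2M had 18.9-fold enrichment and that of CNST 9.36. In HIRA/MRPL40 the histone chaperone side had 13.9 and the mitochondrial ribosome side 5.20. Both pairs were named for a high peak, so the lower value of the other side follows in part from that choice. Of the 5 pairs with the highest sgNeg H3K4me3 peaks, EXOC8/SPRTN and ATPSCKMT/CCT5 also had unlike sides. LMBRD2/SKP2 and BRD9/TRIP13 had 1 peak on both sides.

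In the sgNeg lists, pairs at all distances between the starts were marked about as often, and 1 peak over both starts was rarest at the largest distances. In 4 bins, with starts up to 100 bp apart, then up to 250, up to 500 and up to 1000 bp, 93.3%, 94.1%, 93.7% and 94.7% of pairs had a sgNeg H3K27Ac peak, and 91.1%, 91.8%, 96.3% and 95.3% a sgNeg H3K4me3 peak. Over the same gaps, 90.3%, 82.1%, 84.3% and 61.1% of the marked pairs had 1 sgNeg H3K27Ac peak over both starts, and for H3K4me3 16.9%, 3.06%, 1.70% and 1.23% did. The lowest H3K27Ac share, 61.1%, had an interval of 49.6 to 71.5, which does not overlap those of the smaller gaps. A wider gap needs a wider peak to cover both starts, so this share depends on distance by construction. In the same bins, 26.2%, 26.2%, 33.6% and 35.5% of pairs had a sgNpm1A H3K27Ac peak, and 5.02%, 1.64%, 2.05% and 4.71% a sgNpm1A H3K4me3 peak. The intervals of these sgNpm1A shares overlapped within each mark.

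**Figure D3:**
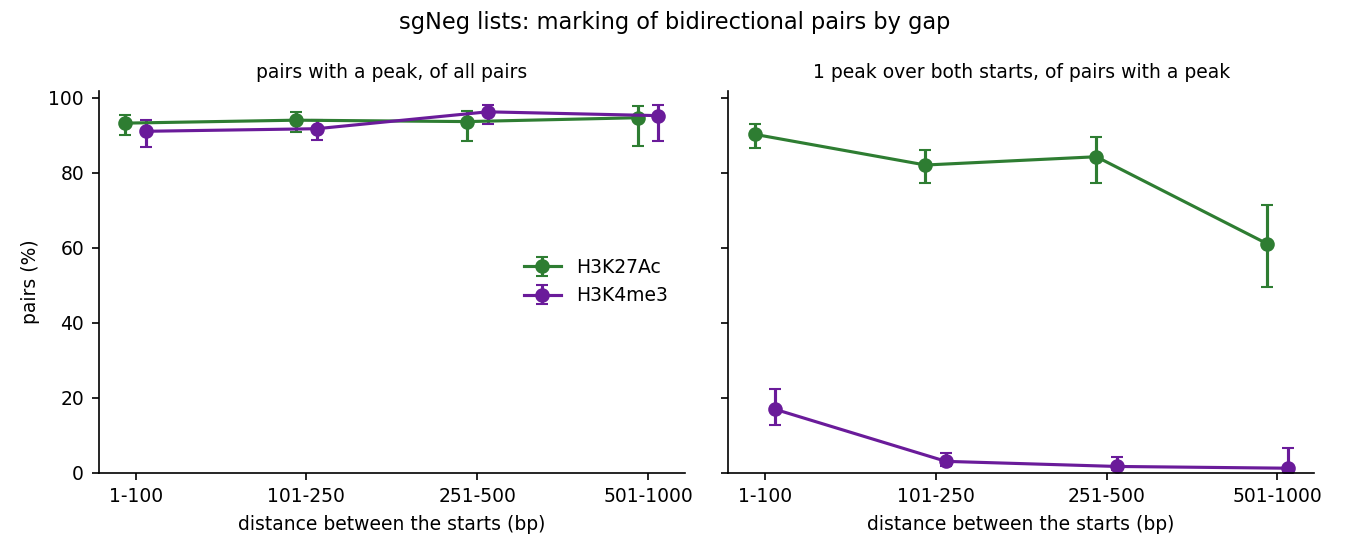
Pairs (%) with a sgNeg peak (left) and, of these, pairs with 1 peak over both starts (right) by the distance between the starts in bp, with 95% Wilson intervals, for H3K27Ac (green) and H3K4me3 (purple). Shares with a peak stay between 91.1% and 96.3%, while peaks over both starts become fewer with distance, to 61.1% and 1.23%.

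Pairs next to the 1000 bp limit of the rule are given as a description. The GRCh37 pairs just inside were PSMB1/TBP (995 bp), MS4A6A/MS4A4A (991 bp) and APBA3/MRPL54 (990 bp), with sgNeg H3K27Ac folds of 5.42, 4.50 and 5.22. Of those just outside, TXNDC12/BTF3L4 (1008 bp) had 5.49 and ENSG00000268790/TMEM38A (1024 bp) had 4.38. None of these 5 had a sgNpm1A H3K27Ac peak. In GRCh38 the pairs just inside were SMIM7/TMEM38A (995 bp), CASKIN2/TSEN54 (991 bp) and APBA3/MRPL54 (990 bp), with sgNeg H3K4me3 folds of 7.49, 10.4 and 5.41, and just outside were USH1G/OTOP2 (1018 bp), PRADC1/CCT7 (1024 bp) and TSR1/SGSM2 (1044 bp), with 4.37, 9.78 and 10.6. CASKIN2/TSEN54 and USH1G/OTOP2 had sgNpm1A H3K4me3 peaks of 3.56 and 4.58, and the other 4 had none. Over all pairs, a start was under a sgNeg H3K27Ac peak in 81.3% of starts with gaps up to 1000 bp, in 56.1% with gaps above that and up to 2000 bp and in 55.7% with larger gaps up to 5000 bp. For sgNeg H3K4me3 the shares of starts were 13.9%, 8.55% and 10.7% in this order, for sgNpm1A H3K27Ac 3.57%, 9.76% and 9.03%, and for sgNpm1A H3K4me3 0.591%, 0 of 152 starts and 1.98%.

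Base composition, which the rule and the marks did not use, differed between the classes. In GRCh37 promoters from 250 bases before to 50 after each start, the median GC content was 64.7% for member genes, 59.3% for one-directional and 60.3% for all coding genes. Observed over expected CpG, which is near 1 where CpG has not been depleted, had medians of 0.879, 0.653 and 0.694. The 2 promoters of a close pair share most of their bases, so member genes are not independent here.

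Short motifs were counted on either strand of the same windows. CCGGAA was found in 39.9% of member promoters, 16.3% of one-directional and 19.4% of all promoters. CATGCGC was in 10.6%, 4.78% and 5.26%, and AGATGGC in 9.22%, 4.96% and 5.52%. GGGCGG was in 72.2%, 50.1% and 52.1%, and CCAAT in 40.3%, 35.6% and 35.8%. TATAAA went the other way, with 4.99%, 12.0% and 10.9%. A match is a description of letters and not a bound site. Among pairs, sgNeg H3K27Ac marking differed with GGGCGG: 95.1% of the 711 pairs with it in either promoter (interval 93.2 to 96.4) and 88.4% of the 172 without it (interval 82.7 to 92.3) had a peak. For CCGGAA the shares were 95.8% of 404 pairs with it (interval 93.4 to 97.4) and 92.1% of 479 without it (interval 89.3 to 94.2). These intervals overlapped, as did those of the remaining motifs. With and without the motif, the shares were 97.3% and 93.3% for CATGCGC and 96.4% and 93.4% for AGATGGC. In the other direction they were 92.5% and 94.9% for CCAAT and 93.1% and 93.8% for TATAAA. CpG content was not held fixed in these shares.

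CpG content moved with the marks in both classes, so the classes were also set side by side within strata of it. Of promoters with observed over expected CpG over 0.8, 96.0% of 599 pairs and 80.7% of 5156 one-directional promoters had a sgNeg H3K27Ac peak, and 96.3% of 643 pairs and 78.5% of 6084 one-directional promoters a sgNeg H3K4me3 peak. Under 0.4 the shares were 18 of 24 pairs against 47.9% for H3K27Ac and 65.0% of 20 pairs against 38.5% for H3K4me3. In each of the 4 strata of both marks the pairs were higher, with intervals that did not overlap.

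Of the pairs marked in sgNeg, those without a sgNpm1A peak were the majority. For H3K27Ac, 592 of 828 had none (71.5%), where the background over all coding promoters was 60.5%, and 236 (28.5%, interval 25.5 to 31.7) had one, against 41.3% of marked one-directional promoters. The 28.5% rested on weak peaks and was 9.03% at q-values under 0.01, 1.85% with the 20000 lowest p-values, 0.653% at folds of at least 4 and 0.372% at q-values under 1e-05. For H3K4me3, 919 of 944 had none (97.4%, background 90.2%), and 25 (2.65%, interval 1.80 to 3.88) had one, against 11.5%. This share was 0.458% at folds of at least 4, 0.249% with the 20000 lowest p-values and 0.227% at q-values under 1e-05. In windows 20 kb from the pairs, 63.1% of those with a sgNeg H3K27Ac peak and 33.1% of those with a sgNeg H3K4me3 peak had a sgNpm1A peak. The percentile of the highest peak was lower in sgNpm1A in 809 of the 828 pairs (97.7%, background 88.6%) and in 936 of the 944 (99.2%, background 96.5%). In the opposite direction, 13 pairs had a sgNpm1A H3K27Ac peak alone (1.47%, against 5.75% of all promoters) and 4 a sgNpm1A H3K4me3 peak alone (0.394%, against 1.65%).

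Within strata of CpG content, the gap between the classes in sgNpm1A H3K27Ac varied in size and direction. Over 0.8 in observed over expected CpG, 27.7% of marked pairs (interval 24.2 to 31.4) and 29.2% of marked one-directional promoters (interval 27.8 to 30.6) had a sgNpm1A H3K27Ac peak, a difference within counting error, and from 0.6 to 0.8 the shares were 25.4% (interval 19.8 to 31.9) and 35.7% (interval 33.7 to 37.8). From 0.4 to 0.6 they were 52.6% of 38 pairs and 46.6%, with overlapping intervals, and under 0.4 they were 38.9% of 18 pairs (interval 20.3 to 61.4) and 64.5% (interval 62.6 to 66.3). Among regions in the top 1% of sgNeg H3K27Ac peaks, 45 of 194 pairs (23.2%) and 23.9% of one-directional promoters had one. For H3K4me3 the shares were 30.8% of 13 pairs and 31.5% under 0.4, 5.08% and 16.8% from 0.4 to 0.6, and 3.16% and 8.60% from 0.6 to 0.8. Over 0.8, they were 1.62% of 619 pairs (interval 0.880 to 2.95) and 4.52% of 4774 (interval 3.97 to 5.15), with intervals that did not overlap. In the top 1% of sgNeg H3K4me3 peaks they were 3.21% of 312 pairs (interval 1.75 to 5.80) and 2.45% of 1915 (interval 1.85 to 3.25), a difference within counting error.

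**Figure D4:**
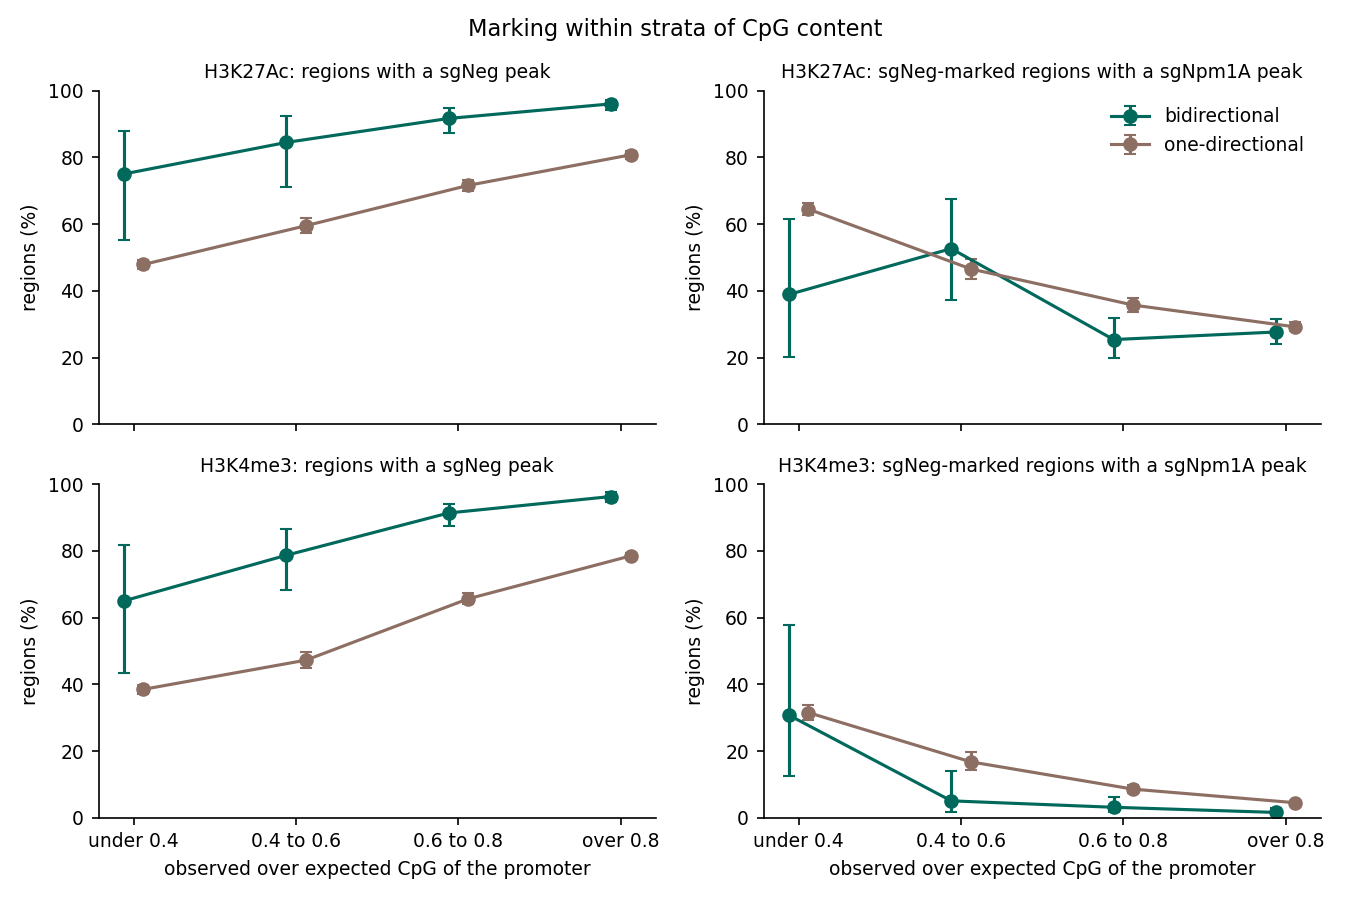
Regions with a sgNeg peak (%, left) and sgNeg-marked regions with a sgNpm1A peak (%, right) within strata of observed over expected CpG, with 95% Wilson intervals, for bidirectional pairs (green) and one-directional promoters (brown). Pairs are higher in every stratum on the left, and on the right the H3K27Ac points meet in the stratum over 0.8 (27.7% and 29.2%).

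Chromosomes 5, 8 and 17, known beforehand for dense peaks in this series, were set apart, and no other chromosome was shown singly. Their shares are a description and lend no support to that choice. Among these groups, peaks in the sgNpm1A H3K27Ac list were unevenly spread. On chromosome 8, 18 of 23 pairs (78.3%) had one and on chromosome 5, 15 of 33 (45.5%), whereas chromosome 17 had 25.9% of 58 pairs and all other chromosomes 26.1% of 769. One-directional promoters had 64.7%, 38.8%, 43.8% and 31.4% in this order. In sgNeg H3K27Ac 23 of 23 pairs on chromosome 8, 93.9% on chromosome 5 and 93.8% on the others had a peak, against 80.3%, 67.1% and 63.9% of one-directional promoters. For sgNpm1A H3K4me3, 5 of 42 pairs on chromosome 5, 2 of 35 on chromosome 8 3 of 70 on chromosome 17 and 19 of 868 on the others had a peak, which is 11.9%, 5.71%, 4.29% and 2.19%. One-directional promoters had 12.0%, 25.3%, 9.33% and 8.05%. Copy number was not measured, and its part in these shares was not tested.

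Both marks could be followed at 567 pairs whose symbols are the same in both annotations. In sgNeg, 525 had both marks (92.6%), 18 H3K27Ac alone, 8 H3K4me3 alone and 16 neither. In sgNpm1A, 10 had both, 149 H3K27Ac alone, 2 H3K4me3 alone and 406 neither (71.6%). Of the 525 pairs with both marks in sgNeg, 378 (72.0%) had neither in sgNpm1A, 138 had H3K27Ac alone and 9 had both. Across the 525 pairs the sgNeg percentiles of the 2 marks had a Spearman's rho of 0.341, given as a description. The 16 pairs with neither mark in sgNeg, looked up after the counts were seen, included the collagen pairs COL4A4/COL4A3 and COL4A6/COL4A5, the receptor pair GABRA4/GABRB1, the olfactory receptor pair OR11A1/OR2H1 and the germline histone pair H2AC1/H2BC1.

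Well-known pairs were described one at a time, with folds comparable within a list only. TMEM258, a subunit of the oligosaccharyltransferase, and FEN1, the flap endonuclease of replication and repair, had a sgNeg H3K27Ac peak of 7.40-fold and no sgNpm1A peak. PPAT and PAICS, both enzymes of purine synthesis, had 5.75 in sgNeg and 2.66 in sgNpm1A, which is the lowest fold of the sgNpm1A H3K27Ac list. NPAT, the coactivator of histone genes, and ATM, the kinase of the DNA break response, had 5.58 in sgNeg and none in sgNpm1A. These 3 peaks covered both starts in sgNeg, over 2097, 2393 and 5001 bp.

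PDCD10, a gene of cerebral cavernous malformation, and SERPINI1, the neuroserpin gene, had 5.08 in sgNeg and none in sgNpm1A. SARS2, the mitochondrial seryl-tRNA synthetase, and MRPS12, a protein of the mitochondrial ribosome, had 4.70 and 2.66, the latter again the lowest fold of the sgNpm1A list. TK1/AFMID had 4.25 in sgNeg and 2.90 in sgNpm1A, over 1421 and 1037 bp. IMMP1L/ELP4, at 4.94 in sgNeg, was the exception in shape, with a peak of 365 bp on the side of ELP4 alone. All 7 of these pairs were marked in sgNeg H3K27Ac, as were 93.8% of all pairs, and 3 of them had a peak in sgNpm1A, as did 28.2% of all pairs, at a lower percentile of its list.

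In GRCh38, 11 well-known pairs were found, and 10 had a sgNeg H3K4me3 peak and none a sgNpm1A H3K4me3 peak, where 93.0% and 2.86% of all pairs did. HSPD1/HSPE1 was the highest of them, with 10.4-fold on the side of HSPD1 and 8.94 on that of HSPE1. SURF1/SURF2, where SURF1 is an assembly factor of respiratory complex IV, had 9.78 and 6.45. In both, the minus-strand gene had the higher side, while in SARS2/MRPS12 the plus-strand gene did, with 3.33 over SARS2 and 9.36 over MRPS12.

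TK1/AFMID had 6.45 and 7.28 on the minus and plus side, PDCD10/SERPINI1 7.28 and 4.99, and IMMP1L/ELP4 3.12 and 6.86. TMEM258/FEN1 had 5.41 and 6.66, and GART/SON 5.41 and 6.03. NPAT/ATM had 5.41 and 4.99, and TAP1/PSMB9, the peptide transporter and immunoproteasome genes of antigen presentation, 5.82 on both. None of these pairs had a peak over both starts. COL4A1/COL4A2 had no peak in either H3K4me3 list, although its printed promoter had the highest GC content of the 5. Of the 300 printed bases, 0 were under a sgNeg H3K4me3 peak in HSPD1/HSPE1, GART/SON and TK1/AFMID, and 1 in IMMP1L/ELP4.

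**Figure D5:**
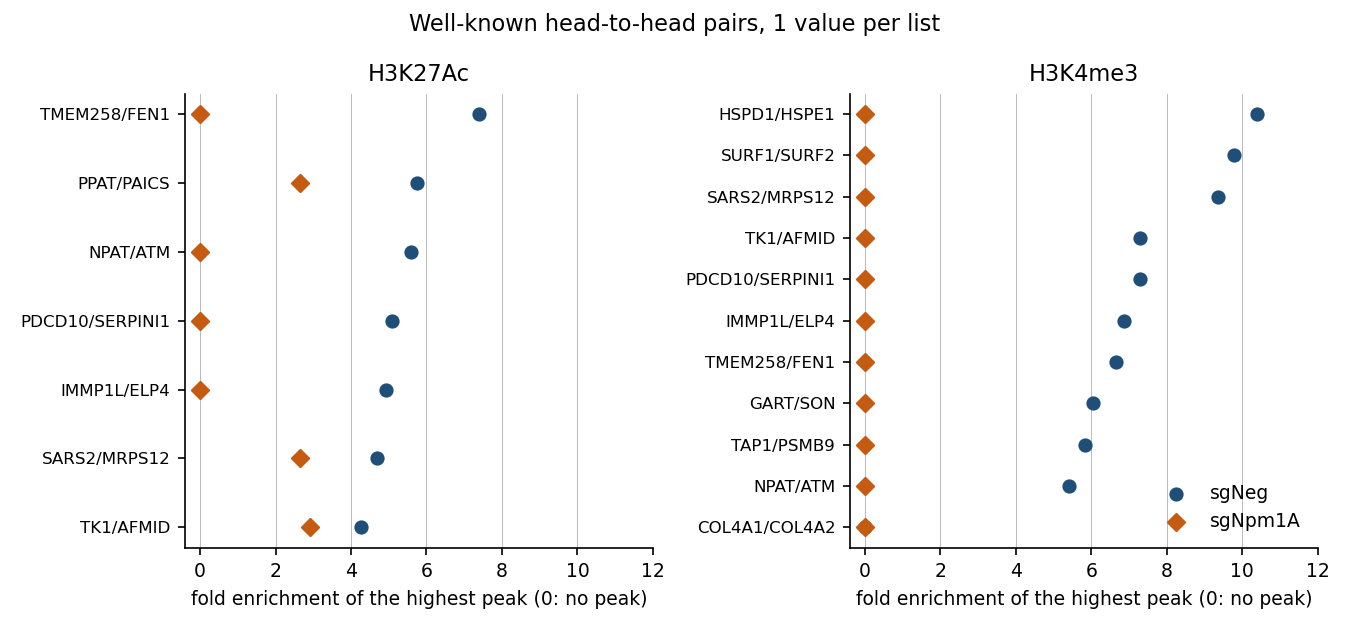
Fold enrichment of the highest peak at well-known pairs, by list, with blue circles for sgNeg and orange diamonds for sgNpm1A and 0 for no peak. Each point is 1 library, and folds are comparable within a list only. Every marked pair lies at 4.25 or above in sgNeg, and in sgNpm1A 3 pairs have an H3K27Ac peak and none an H3K4me3 peak.

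The highest sgNeg H3K27Ac peaks over pairs were those of ARID4B/ENSG00000285053 (10.9-fold), ATAD2B/UBXN2A (10.4), IFT140/CRAMP1 (10.0), ANKRD11/SPG7 (9.83) and ENSG00000285253/TCF12 (9.77). ARID4B and ATAD2B encode chromatin proteins, IFT140 a protein of intraflagellar transport, SPG7 a mitochondrial protease and TCF12 an E-protein transcription factor. All 5 peaks covered both starts, and none of the 5 pairs had a sgNpm1A H3K27Ac peak. The widest sgNeg H3K27Ac peaks were 34937 bp over RECQL4/LRRC14, 17410 bp over SKA2/PRR11 and 16163 bp over RHOF/SETD1B, where RECQL4 is a DNA helicase and SETD1B a methyltransferase of lysine 4 of histone H3. RECQL4/LRRC14 had 5.10-fold in sgNeg and 3.65 over 2987 bp in sgNpm1A, and the other pairs had no sgNpm1A peak.

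For H3K4me3 the highest sgNeg values were 19.6 at LMBRD2/SKP2, 18.9 at TFB2M/CNST, 16.8 at EXOC8/SPRTN, 16.4 at BRD9/TRIP13 and 15.8 at ATPSCKMT/CCT5. SKP2 is a component of a ubiquitin ligase of the cell cycle, EXOC8 a subunit of the exocyst, SPRTN a protease that clears DNA-protein crosslinks and CCT5 a subunit of the cytosolic chaperonin. LMBRD2/SKP2, BRD9/TRIP13 and ATPSCKMT/CCT5 lie on chromosome 5. LMBRD2/SKP2 had a sgNpm1A H3K4me3 peak of 3.05-fold and 404 bp, and TFB2M/CNST, EXOC8/SPRTN and ATPSCKMT/CCT5 had none.

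BRD9/TRIP13 was in the top 1% of all 4 lists. BRD9 is a bromodomain subunit of a BAF complex and TRIP13 an ATPase of the mitotic checkpoint. Its starts are 83 bp apart in both annotations. H3K27Ac was 8.03-fold over 6250 bp in sgNeg and 4.72-fold over 2781 bp in sgNpm1A, and H3K4me3 was 16.4-fold over 3894 bp and 6.87-fold over 1070 bp. It was the only pair in the top 1% of the sgNpm1A H3K4me3 list and 1 of 4 in that of sgNpm1A H3K27Ac. In both sgNpm1A lists its highest peak lay on the side of TRIP13 and no peak covered both starts, while in both sgNeg lists 1 peak did.

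The other high sgNpm1A H3K27Ac values were 5.18 at MTERF3/PTDSS1 (6.61 in sgNeg), 5.11 at TNS1/RUFY4 (3.94), 4.50 at DHX32/FANK1 (4.11) and 4.17 at KRTCAP2/TRIM46 (4.54). MTERF3 is a factor of mitochondrial gene expression, PTDSS1 a phosphatidylserine synthase, TNS1 a protein of focal adhesions and KRTCAP2 a subunit of the oligosaccharyltransferase. These 4 pairs were among the 19 whose percentile was not lower in sgNpm1A. In sgNpm1A H3K4me3 the next values were 4.83 at OPLAH/EXOSC4 (4.37 in sgNeg), 4.32 at ACAP3/PUSL1 (10.2), 4.32 at LOC124904708/ZNF540 (no sgNeg peak) and 4.07 at DCST2/DCST1 (4.16). OPLAH/EXOSC4 and MTERF3/PTDSS1 lie on chromosome 8.

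In GRCh37, 34 of the 883 pairs held a gene of the DNA repair list. Whether DNA repair genes lie in pairs more often than other coding genes was not tested. Of these 34, 33 had a sgNeg H3K27Ac peak and 6 a sgNpm1A H3K27Ac peak. The 6 include RAD51D/FNDC8, the 1 repair pair without a sgNeg H3K27Ac peak, at 3.08-fold in sgNpm1A. In GRCh38, 36 of 38 had a sgNeg H3K4me3 peak and 1 a sgNpm1A peak. In both annotations IGBP1C/RAD51C and TEX14/RAD51C share a gene. Over all pairs the shares were 93.8% and 28.2% for H3K27Ac and 93.0% and 2.86% for H3K4me3, so the list was near them. The medians of their sgNeg percentiles were 97.8 for H3K27Ac and 97.9 for H3K4me3, and those of all pairs 97.8 and 98.3.

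The highest repair pairs in sgNeg H3K27Ac were TMEM258/FEN1, given above, and RAD52/ERC1 at 7.28-fold, where RAD52 anneals single strands in recombination. For sgNeg H3K4me3 the highest were RECQL4/LRRC14 (13.3) and RECQL5/SAP30BP (11.2), both with RecQ helicases. TP53BP1/MAP1A, with the adaptor 53BP1 of break repair, had no sgNeg peak and 3.82 in sgNpm1A, and MRE11/C11orf97 was the other repair pair without a sgNeg H3K4me3 peak.

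Genes of the mitochondrial ribosome gave 18 pairs in GRCh37 and 22 in GRCh38. In GRCh37, MRPL47/NDUFB5 shares a gene with MRPL47/ENSG00000288698, and PSMA2/MRPL32 with ENSG00000256646/MRPL32, so the 18 are not all separate promoters. Each pair had a sgNeg peak of the respective mark (18 of 18 and 22 of 22), 1 H3K27Ac peak covered both starts in 18 of the 18, and 4 had a sgNpm1A H3K27Ac and 0 a sgNpm1A H3K4me3 peak. Of all pairs, 93.8% and 93.0% had a sgNeg peak, 83.8% of those marked by H3K27Ac had 1 peak over both starts, and 28.2% and 2.86% had a sgNpm1A peak. MRPL36/NDUFS6, which joins the large ribosomal subunit with respiratory complex I, had 7.88-fold in sgNeg H3K27Ac and 2.66, the lowest fold of the list, in sgNpm1A. TCP1/MRPL18, with a chaperonin subunit, had 6.79 for H3K27Ac and 13.9 for H3K4me3, and none in sgNpm1A. The lowest members were MRPL10/LRRC46 for H3K27Ac (3.49) and MRPL27/EME1 for H3K4me3 (4.99), both without a sgNpm1A peak.

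Core histone genes, which lie head to head mostly as H2A and H2B pairs and share reads with near-identical copies, differed between the marks. The list also holds pairs of H3 and H2B genes. These are H3C12/H2BC17 and H3C7/H2BC9 in GRCh37, and H3C4/H2BC7 and H3C7/H2BC9 in GRCh38. H3C12/H2BC17 shares a gene with H2AC17/H2BC17, and H3C4/H2BC7 with H2AC7/H2BC7. For H3K27Ac, 11 of 12 pairs had a sgNeg peak, with a median fold of 5.80 against 4.77 over all pairs, and 1, H2AC25/H2BC26, a sgNpm1A peak. For H3K4me3, 9 of 14 had a sgNeg peak, with a median fold of 4.58 against 7.49 over all pairs, and 0 a sgNpm1A peak. Of all pairs, 93.8% and 93.0% had a sgNeg peak and 28.2% and 2.86% a sgNpm1A peak of these marks. The sgNeg H3K27Ac values were 7.63 over 10066 bp at H2BC21/H2AC20 and 6.63 over 6520 bp at H2BC4/H2AC6. For H3K4me3, H2BC4/H2AC6 had 9.57 on the side of H2AC6 and none on that of H2BC4, and H2AC25/H2BC26 had 8.53 and 5.62. The 5 histone pairs without a sgNeg H3K4me3 peak, named after the count was seen, were H2AC1/H2BC1, H2AC14/H2BC14, H2BC12/H2AC12, H2BC13/H2AC13 and H2BC8/H2AC8. The chromatin genes that the study examined gave 0 pairs in either annotation.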

How the data were processed

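Chromatin of OCI-AML3 cells was crosslinked, sonicated, precipitated and tagmented with Tn5, and peaks were called by the authors in each library. The submitters' processing notes name bcl2fastq 2.17, Trimmomatic 0.33, Bowtie 1.1.2, MACS2 2.1.0, deepTools and hg38, and the calling limit was not given in the sources used here. The deposited fold enrichment of a peak is a ratio of its pileup to the expected one. Each peak also has a deposited −log10 q-value and −log10 p-value, used for alternatives, and a deposited score, which was not used. Chromosome 1 peaks of the H3K27Ac lists ended at 249218478 and 249212461, past the end of hg38, so GRCh37 was used for them. Chromosome 17 peaks of the H3K4me3 lists ended at 83201880 and 83201881, past the end of hg19, so GRCh38 was used. No coordinate was converted. The 2 inputs were not analysed here, and read depth is unknown.

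Gene starts were those of the gene records. In GRCh38 the strand came from the RefSeq promoter table for 15841 coding genes and from GENCODE by symbol for 3830, and 63 of 15287 genes with both differed. A peak counted with 1 bp of overlap, and percentiles are ranks of fold enrichment within a list. Members and lists were chosen with earlier results of these data known. Named pairs are the 5 highest of each list, well-known head-to-head pairs (BRCA2/ZAR1L and IDH3G/SSR4 were among those not found by the rule), the 2 highest and 1 lowest of each functional list, 3 on each side of the 1000 bp limit and the 3 widest, of which a few are not reported here. CpG strata use GRCh37 sequence, and for H3K4me3 the RefSeq promoters, with GRCh37 sequence by symbol where RefSeq had none. The CpG value of a pair is the mean over its promoters. Python 3.11.15, NumPy 2.4.6, SciPy 1.17.1, pandas 2.3.3 and Matplotlib 3.10.9 were used, and the scripts were tested on simulated data.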

Additional observations from a re-analysis of the deposited data

How the results depend on the processing

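No paired analysis was possible because each group held 1 library. With 1 library per group no result has a replicate check, and read depth, input, copy number and editing could not be weighed. Values are differences in percentage points (bidirectional minus one-directional share with a peak), shares of sgNeg-marked pairs with a sgNpm1A peak, and shares of marked pairs with 1 peak over both starts. Of 88 such values under the alternatives, 54 stayed within the interval of the main value, 33 left it and 1 changed sign. Median percentiles are not counted. They rank peaks in the full list, and a filter on peaks changes the value only of pairs that lose their highest peak. Under every alternative they stayed within the interval of the main value.

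With q-values under 0.01, the difference was 40.9 points in sgNeg H3K27Ac, 9.03% of sgNeg-marked pairs had a sgNpm1A H3K27Ac peak, and 88.2% of marked pairs had 1 sgNeg H3K27Ac peak over both starts. With q-values under 1e-05, the differences were 34.6 (sgNeg H3K27Ac), 42.5 (sgNeg H3K4me3), −1.29 (sgNpm1A H3K4me3) and, with the sign changed, 0.161 (sgNpm1A H3K27Ac, interval −0.133 to 0.871), the shares with a sgNpm1A peak were 0.372% and 0.227%, and peaks over both starts were 93.7% (sgNeg H3K27Ac), 25% (sgNpm1A H3K27Ac) and 50% (sgNpm1A H3K4me3). With folds of at least 4, the differences were 39.5, 43.9, −0.123 and −2.12, the shares 0.653% and 0.458%, and peaks over both starts 91.5%, 16.7% and 40.0%. With the 20000 lowest p-values of each list, the differences were 43.9, 44.3, −0.616 and −1.61, the shares 1.85% and 0.249%, and peaks over both starts 90.3%, 13.3% and 50%. With 200 bp of overlap, the differences were 32.6 and 38.1 in sgNeg, and 22.2% of pairs had a sgNpm1A H3K27Ac peak. With gaps of at most 300 bp, 7.78% of pairs had 1 sgNeg H3K4me3 peak over both starts. These alternatives leave fewer peaks or pairs by construction, and 4 and 2 pairs had a sgNpm1A H3K27Ac or H3K4me3 peak at q-values under 1e-05. One pair per overlapping set, single-gene windows, one-directional promoters without a noncoding partner and leaving out chromosomes 5, 8 and 17 moved no value past its interval. In the windows of each single gene, peaks over both starts were not counted.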
